A study of Rattus norvegicus with 10 samples.

Results

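The chemokines, the interleukins and their receptors were examined in the right brain of rats that had inhaled DMHF. The members were all genes whose platform symbol begins with Ccl, Ccr, Cxcl, Cxcr or Il followed by a digit and which had a probe set naming no other gene. This rule uses names alone and no measured value. It gave 89 of the 14217 genes named on the array, measured by 114 probe sets, and the probe set with the highest mean stood for its gene. They comprise 16 CC chemokine ligands, 6 CC receptors, 11 CXC ligands, 5 CXC receptors, 26 interleukins with their secreted inhibitors, and 25 chains of interleukin receptors. Il13ra1 is not among them, because both of its probe sets also name a pseudogene.

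Each of the 10 Affymetrix arrays measured the right brain of a single rat, a male Wistar aged 7 weeks. In the DMHF group (n = 5), rats breathed for 5 min air that had passed through a flask with 5 mL of DMHF, a dimethyl hydroxy furanone with a caramel and strawberry odor. In the control group (n = 5), the flask held 5 mL of distilled water. The inhalation preceded the dark period and all rats were killed 10 min after it, so the comparison asks which transcripts differ within minutes of an inhaled odor. Right and left were divided at the midline, and no brain region was dissected, so in this bulk RNA fewer cells of a type and less RNA per cell cannot be told apart. The titles call the arrays biological replicates, and cage, litter and array batch are not stated there.

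Chemokines are small secreted proteins that attract leukocytes through G protein-coupled receptors, and the CC and CXC families take their names from the spacing of conserved cysteines. Interleukins are secreted signals of immune and tissue cells that act through receptors built from several chains, most of which signal through JAK kinases and STAT factors or, for the interleukin-1 family, through Myd88 and NF-kappa-B. In healthy brain most of these ligands are scarce. Exceptions are Cxcl12, which guides migrating neurons and vessels, Il34, a neuronal ligand of the receptor that keeps microglia alive, and Il33, held in the nuclei of glia.

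The deposited values ran from 5.25 to 14.22 on a scale taken as log2, with a median of 7.24 on the arrays. Differences between arrays on that scale were minute. They are therefore given in millionths of a log2 unit relative to the mean of the control rats, and also in units of the SD between rats of a group for the same probe set. Neither unit gives a fold change. Within groups the SD of a member had a median of 2.63 millionths (range 0.157 to 30.3), against 1.80 over all genes. Of the 89 members, 76 had a mean below the array median of 7.24, a description of probe signal that does not rank transcripts by abundance. Markers of neurons (6 of 6), astrocytes (6 of 6), and oligodendrocytes (5 of 5 measured) had means above that median, between 7.68 and 13.79.

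No chemokine, interleukin or receptor gene passed the test for a difference between DMHF and control rats. Over all 31042 probe sets, limma called 0% at an adjusted p under 0.05, and the adjusted p of the members ran from 0.738 to 0.9996. At an unadjusted p under 0.05, limma listed 8 members higher in DMHF and 0 lower. Over all genes that threshold listed 4.8%, of which 2.98% were higher and 1.83% lower. The 8 higher members make 8.99% of the 89. The groups did not overlap for 4 members, Cxcl2, Ccl3, Il12b and Il7r, each with all 5 DMHF rats above all 5 control rats, and 0 members had all DMHF rats below all controls. Of all genes 0.893% were separated, 0.549% with DMHF above and 0.345% with DMHF below.

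Most members had a small difference with a positive sign. In DMHF 71 of 89 (79.8%) were nominally higher and 18 lower, against 53% nominally higher among all 14217 genes. The median difference was 0.409 within-group SD in the members and 0.0477 in all genes, and for 70 members the difference was below 1 SD in size. By role, 14 of 16 CC ligands, 6 of 6 CC receptors, 8 of 11 CXC ligands, 5 of 5 CXC receptors, 19 of 26 interleukins and inhibitors and 19 of 25 receptor chains were nominally higher. The medians of these groups lay between 0.192 SD for the CXC receptors and 0.823 SD for the CC receptors.

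**Figure D1:**
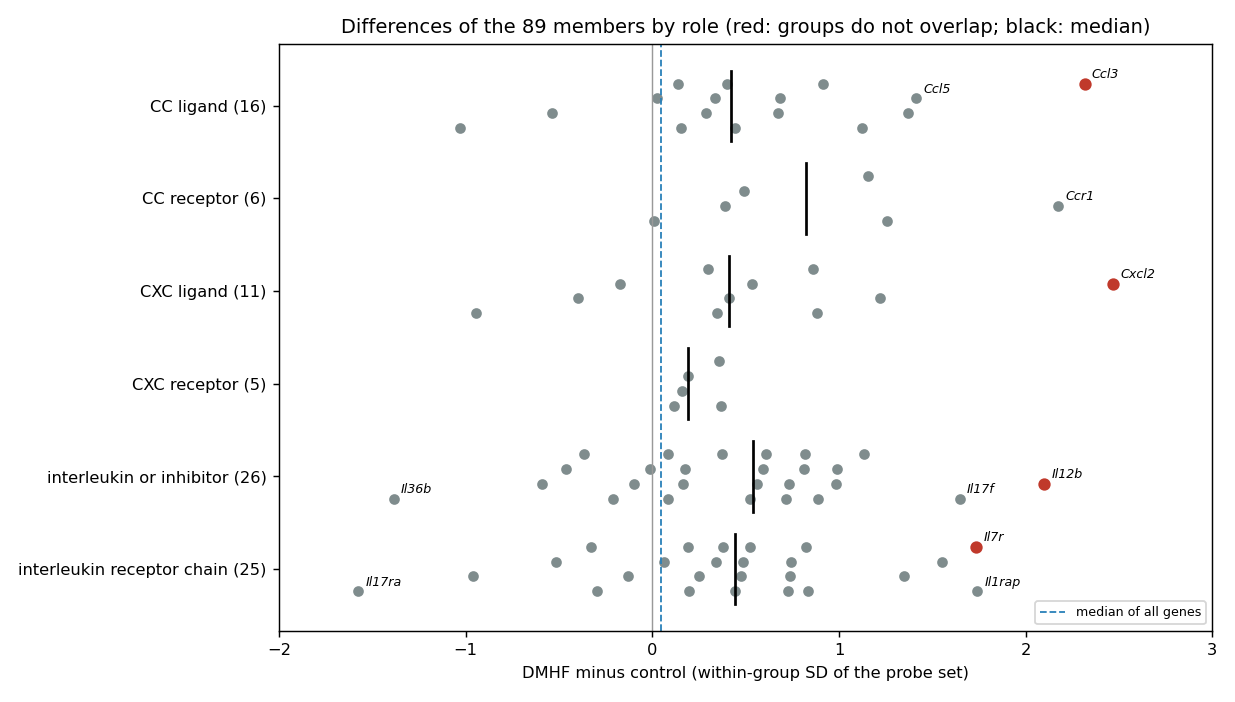
Difference between DMHF and control rats, in within-group SD of the probe set, for each of the 89 members by role, with the number of genes in brackets. Black bars are medians of a role, red points are the 4 members whose groups do not overlap, the dashed line is the median of all genes at 0.0477 SD, and labels mark genes named in the text beyond 1.3 SD in either direction.

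This tilt went with the signal of the probe set. Among genes below the array median, 64.8% of all 4967 genes were nominally higher in DMHF, and 64 of 76 members (84.2%). At or above the array median, 46.6% of all 9250 genes were nominally higher, and 7 of 13 members (53.8%). All 8 members with an unadjusted p under 0.05 lay below the median, where limma listed 5.64% of all genes as higher at that threshold, against 10.5% of the members there. The 4 members without overlap lay there too, where 0.987% of all genes had all DMHF rats above all controls. The division at the array median was chosen after the values were seen. The part of dim signal in the shift of the members was not tested.

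**Figure D2:**
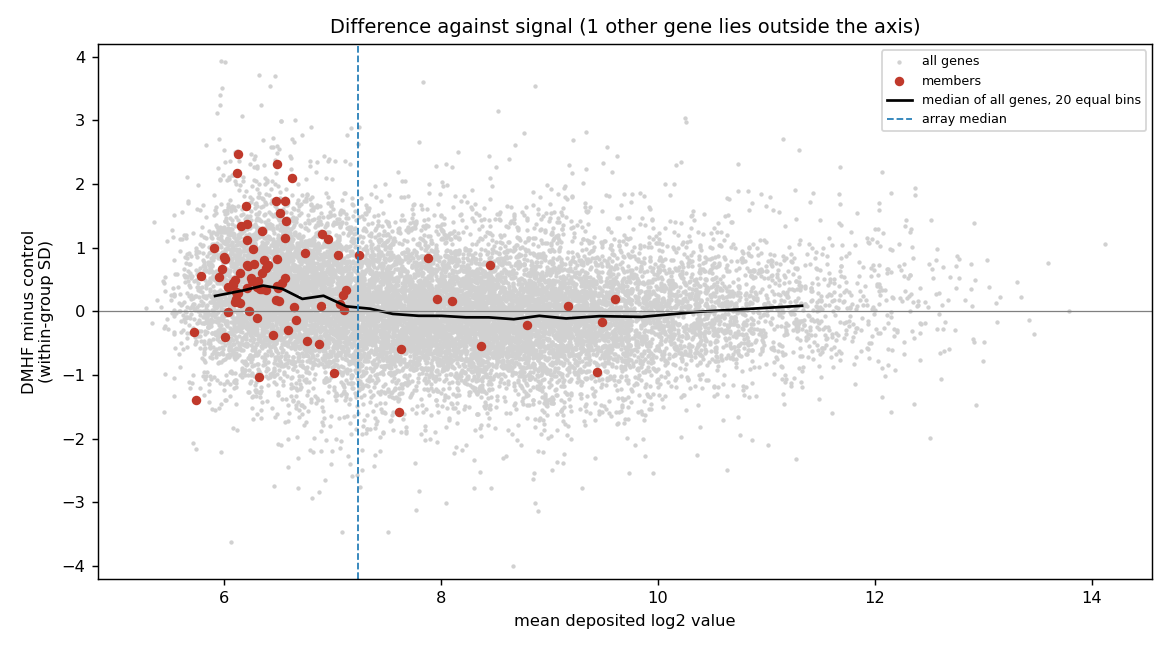
Difference between DMHF and control rats in within-group SD against the mean deposited log2 value, for the members in red and all genes in grey, with the median of all genes in bins of equal size as a black line and the array median as a dashed line. The black line lies above 0 for the dimmest genes, where 76 of the 89 members lie.

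The tilt was also uneven between rats. Of the 89 members, 27 had their highest value of the 10 arrays in DMHF replicate 2, or 30.3%, where 12.5% of all genes and 23.8% of all genes below the array median had theirs. The median member stood 1.05 SD above its control mean in that rat, 0.512 SD in DMHF replicate 3 and 0.394 SD in DMHF replicate 4, but only 0.132 SD in each of DMHF replicates 1 and 5. Control rats had medians between -0.123 and 0.144 SD. Control replicate 2 thus lay above DMHF replicates 1 and 5 by this measure. Without DMHF replicate 2, 63 of 89 members (70.8%) were nominally higher, against 53.8% of all genes. Below the array median 73.7% of the members were nominally higher without that rat, against 59.4% of all genes.

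**Figure D3:**
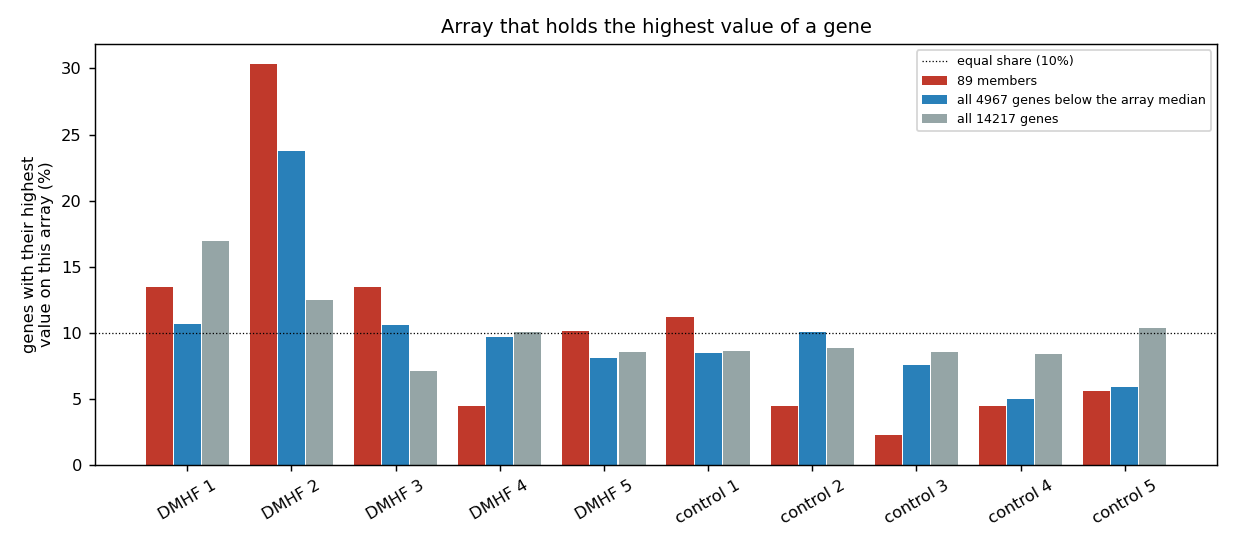
Share of genes whose highest value among the 10 arrays fell on each array, in percent, for the 89 members, all 4967 genes below the array median and all 14217 genes. DMHF replicate 2 held the highest value of 30.3% of the members and 23.8% of all genes below the array median.

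Among the CC ligands, Ccl3 had the largest difference in SD. Ccl3, also known as macrophage inflammatory protein 1 alpha, is released by microglia and macrophages and attracts monocytes and lymphocytes. Its values were 3.87, 7.55, 11.2, 10.2 and 4.93 millionths from the control mean in DMHF rats, against -2.24, -4.63, 3.03, 2.75 and 1.09 in control rats. The lowest DMHF rat, replicate 1, stood just above the highest control rat, replicate 3. The difference was 7.56 millionths (SE 1.97, n = 5 each), or 2.32 SD, with a limma adjusted p of 0.738. The exact two-sided permutation test gave p = 0.00794, the smallest that 5 arrays against 5 allow. Any gene without overlap gets this p, so it restates the separation, which 0.893% of all genes had in either direction.

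Ccl4, a related attractant of monocytes and lymphocytes, lies next to Ccl3 with 0 protein-coding genes between them in the RefSeq order. It had 0.237, 0.308, 4.07, 2.79 and -2.94 millionths in DMHF rats and -0.581, 0.557, -2.37, 0.221 and 2.17 in control rats. The groups overlapped widely, and the difference was 0.893 millionths (SE 1.37, limma adjusted p = 0.9996), or 0.399 SD. The difference between Ccl3 and Ccl4 in response was not tested.

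Ccl5, a T cell and monocyte attractant, stood at 0.393, 5.03, 3.05, 3.88 and 1.08 millionths in DMHF rats and at 0.496, 2.41, -0.0918, -2.81 and -0.0088 in control rats. Of the 5 DMHF rats, 3 lay above every control rat, and replicates 1 and 5 fell within the control range. The difference was 2.69 millionths (SE 1.16), or 1.42 SD, with an unadjusted limma p of 0.0466 and an adjusted p of 0.900. The exact two-sided permutation p was 0.0556. Ccl2, the main monocyte attractant of injured brain, differed by only 0.472 millionths (SE 1.86), and its DMHF values spread from -5.90 in replicate 4 to 3.94 in replicate 1.

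Only 2 CC ligands were nominally lower. Ccl6, a macrophage chemokine of rodents that lies in the same cluster as Ccl3, had -9.49, -8.52, -16.2, 1.41 and -7.73 millionths in DMHF rats, against 12.8, -8.09, 1.92, -9.61 and 2.98 in control rats. DMHF replicate 3 alone lay below all control rats, and the difference was -8.11 millionths (SE 4.73, limma adjusted p = 0.950), or -1.03 SD. Ccl27, known as a skin chemokine for T cells, varied most among all members, with an SD of 34.1 millionths among DMHF rats and 25.9 among control rats. Replicate 1 was its lowest value in both groups, at -72.4 millionths in DMHF and -34.5 in control. Its difference of -16.2 millionths (SE 18.2), or -0.536 SD, was smaller than either spread, and with single arrays left out it ran from -24.9 without control replicate 1 to -2.18 without DMHF replicate 1.

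The 6 CC receptors had positive differences between 0.00637 and 2.17 SD, led by Ccr1, the receptor of Ccl3 and Ccl5 on monocytes and neutrophils. Ccr1 stood at 1.90, 5.19, 3.74, 3.97 and 1.68 millionths in DMHF rats and at 1.75, 0.554, -0.361, 0.486 and -2.43 in control rats. In DMHF, 4 of 5 rats lay above all control rats, while replicate 5 lay between control replicate 1 and the other controls. Ccr1 differed by 3.30 millionths (SE 0.937), or 2.17 SD (limma adjusted p = 0.784, exact two-sided permutation p = 0.0159). All 6 receptors had means below the array median, with a highest mean of 6.56.

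Among the CXC ligands, Cxcl2 had the smallest unadjusted p of all members, 0.00287. Cxcl2 attracts neutrophils through Cxcr2 and is induced by NF-kappa-B. It had 9.29, 7.03, 10.7, 5.11 and 6.63 millionths in DMHF rats, against 0.945, 4.88, 0.915, -1.05 and -5.69 in control rats. All DMHF rats lay above all controls, with DMHF replicate 4 only slightly above control replicate 2. The difference was 7.74 millionths (SE 1.90), or 2.47 SD, with a limma adjusted p of 0.738. It was the only 1 of the 4 non-overlapping members that stayed so when each array was shifted to a common median, a setting under which 0.141% of all genes were separated in either direction. Before that shift the array medians differed by up to 15.2 millionths, more than the difference of any of the 4 genes. After it the unadjusted limma p was 0.0899 for Ccl3, 0.221 for Ccr1 and 0.373 for Ccl5. For Cxcl2, Il12b, Il1rap and Il17f it stayed under 0.05, and for Il7r it did not. After quantile normalization only 22 of the 89 members kept a difference, and 0 members were without overlap. The share over all genes was not computed for that setting.

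Cxcl1, the neighbour of Cxcl2 with 0 protein-coding genes between them, is also a neutrophil attractant and was added to the description after its values were seen. It had -2.64, -3.28, 1.45, 2.53 and -3.73 millionths in DMHF rats and 4.30, -1.31, -1.20, 1.01 and -2.80 in control rats. Its groups overlapped, and its difference of -1.13 millionths (SE 1.72), or -0.399 SD, had the other sign from that of Cxcl2 (limma adjusted p = 0.9996). With single arrays left out it ran from -2.05 millionths without DMHF replicate 4 to -0.056 without control replicate 1. The difference between the genes was not tested.

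The promoters of both genes are shown because they are neighbours, of which Cxcl2 was separated between the groups and Cxcl1 was not. That of Il7r is shown because it is another member whose groups did not overlap. For Ccl3 and Il12b, also without overlap, no promoter entry was available. Each line gives the 250 bases before the RefSeq start in assembly GRCr8, read in the direction of the gene, at chr14:17467256-17467505 for Cxcl2, chr14:17479322-17479571 for Cxcl1 and chr2:60204918-60205167 for Il7r, all on the minus strand. Capitals mark matches to a loose form of the kappa-B motif, GGG and CC with any 5 bases between them, searched on both strands. Matches that overlap run together as 1 stretch of capitals.
Cxcl2: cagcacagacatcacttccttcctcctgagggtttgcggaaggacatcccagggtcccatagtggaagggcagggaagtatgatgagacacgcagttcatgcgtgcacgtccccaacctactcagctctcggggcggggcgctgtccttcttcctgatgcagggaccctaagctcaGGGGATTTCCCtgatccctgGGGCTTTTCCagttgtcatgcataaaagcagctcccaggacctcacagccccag
Cxcl1: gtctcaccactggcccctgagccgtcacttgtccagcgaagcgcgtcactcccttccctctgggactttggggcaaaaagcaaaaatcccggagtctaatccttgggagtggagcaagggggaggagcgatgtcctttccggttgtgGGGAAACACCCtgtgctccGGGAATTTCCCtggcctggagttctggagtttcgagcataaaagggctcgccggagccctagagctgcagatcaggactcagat
Il7r: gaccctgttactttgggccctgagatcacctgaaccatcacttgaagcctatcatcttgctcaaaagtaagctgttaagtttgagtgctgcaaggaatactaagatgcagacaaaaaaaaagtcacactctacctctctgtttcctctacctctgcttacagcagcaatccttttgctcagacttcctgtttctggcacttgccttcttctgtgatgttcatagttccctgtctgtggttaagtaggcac
The window of Cxcl2 held 3 matches and that of Cxcl1 held 4, while these letters are not in the window of Il7r. Of the 67 members with a promoter in the RefSeq table, 36 (53.7%) held at least 1 match, against 43.5% of all 27457 promoters of the same length. The motif is thus common, and its part in the differences of these genes was not tested.

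The CXC ligands with the highest signal showed no separation of the groups. Cxcl12 stood at -2.71, -0.897, -6.19, -2.62 and -1.54 millionths in DMHF rats and at 4.29, 2.60, -0.129, -1.85 and -4.91 in control rats. All 5 DMHF rats lay below their control mean, but within or just beyond the control range. The difference was -2.79 millionths (SE 1.79), or -0.947 SD (limma adjusted p = 0.956), and the other probe sets of Cxcl12 had the same sign at -0.0939 and -0.226 SD.

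Cxcl14, a chemokine of epithelia and neurons, had a mean of 9.49 and differed by -0.396 millionths (SE 1.40), or -0.172 SD. Cxcl10, a target of interferon that attracts T cells, differed by 0.362 millionths (SE 0.667), or 0.345 SD. Neither group of rats stood apart for these genes. Cxcl16, a membrane-bound chemokine, spread more widely, with 58.7, 21.9, 18.9, 36.8 and 9.70 millionths in DMHF rats and 35.1, -3.90, 1.99, 9.24 and -42.4 in control rats. Replicate 1 was the highest in each group, and the difference of 29.2 millionths (SE 14.4), or 1.22 SD, had a limma adjusted p of 0.931.

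The 5 CXC receptors differed least, from 0.118 to 0.370 SD. Cxcr4, the receptor of Cxcl12, had 28.7, -0.507, -17.0, -3.63 and 2.19 millionths in DMHF rats, against 25.2, 6.05, -12.5, -2.19 and -16.6 in control rats. Replicate 1 again was highest in both groups. The spread between rats, with an SD of 16.7 in DMHF and 16.6 in control, far exceeded the difference of 1.96 millionths (SE 10.0, limma adjusted p = 0.9996), whose sign changed when DMHF replicate 1 or control replicate 3 or 5 was left out.

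Among the interleukins, Il12b had the largest difference. Il12b encodes the chain shared by interleukin-12 and interleukin-23, made by antigen-presenting cells. It stood at 9.12, 18.3, 9.98, 12.8 and 8.79 millionths in DMHF rats and at -11.6, 0.231, 3.996, 1.16 and 6.19 in control rats. Every DMHF rat lay above every control rat, with control replicate 1 far below the rest of its group. The difference was 11.8 millionths (SE 3.38), or 2.10 SD, with a limma adjusted p of 0.787.

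Il17f, a T cell cytokine of the interleukin-17 family named here after its values were seen, had 14.0, 4.76, 3.28, 5.92 and 5.63 millionths in DMHF rats, against 3.40, 2.87, -6.54, -0.151 and 0.422 in control rats. DMHF replicate 3 lay just below control replicate 1, and the other 4 DMHF rats lay above all controls. The difference was 6.71 millionths (SE 2.46), or 1.65 SD (limma adjusted p = 0.868).

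The early cytokines of inflammation had overlapping groups. Il1b, which microglia release through the inflammasome, had 0.928, 0.176, -0.0572, 0.206 and 0.874 millionths in DMHF rats and 0.4998, 0.362, -0.413, -0.828 and 0.380 in control rats. The groups overlapped, and the difference was 0.425 millionths (SE 0.379), or 0.815 SD. Il6, which drives the acute-phase response, stood at -0.197, 4.23, 8.60, 3.48 and 1.82 millionths in DMHF rats and at -4.12, 5.17, 0.434, 2.17 and -3.66 in control rats. Only DMHF replicate 3 lay above all controls, and the difference was 3.59 millionths (SE 2.19), or 0.990 SD (limma adjusted p = 0.951). Il10, an anti-inflammatory cytokine, differed by 1.14 millionths (SE 1.23), or 0.563 SD.

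The interleukins with the highest signal differed by less than 1 SD. Il33, with a mean of 9.17, differed by 0.418 millionths (SE 3.09), and Il34, with a mean of 8.79, by -0.217 (SE 0.655). Il16, a ligand of CD4 whose long form is made by neurons, had a mean of 8.45 and a difference of 10.0 millionths (SE 8.21), or 0.734 SD. Its DMHF values ran from -9.00 to 24.1 millionths with a median of 8.56, its control values from -19.6 to 17.9 with a median of 1.96. Il18, an interleukin-1 family cytokine made as an inactive precursor, differed by -0.893 millionths (SE 0.936), or -0.590 SD.

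Of the 7 interleukins and inhibitors that were nominally lower, Il36b, an interleukin-1 family cytokine of epithelia, had the smallest p. It had -1.53, -1.78, -1.82, -1.83 and -0.488 millionths in DMHF rats, against -1.35, -1.13, 1.62, 1.39 and -0.532 in control rats. In DMHF, 4 of 5 rats lay below all controls and replicate 5 lay among them. The difference was -1.49 millionths (SE 0.681), or -1.39 SD, with a limma adjusted p of 0.931. The mean of Il36b, 5.74, was among the lowest of the members, which began at 5.72.

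In the receptor chains, limma listed Il7r and Il1rap at an unadjusted p under 0.05, and only Il7r was separated between the groups. Il7r, the receptor chain for interleukin-7 on lymphocytes, stood at 6.84, 2.82, 1.39, 3.93 and 1.22 millionths in DMHF rats and at 0.597, 1.10, -0.296, 0.728 and -2.13 in control rats. The margin was narrow, since DMHF replicate 5 exceeded control replicate 2 by little. The difference was 3.24 millionths (SE 1.14), or 1.74 SD (limma adjusted p = 0.868). A dimmer probe set of Il7r had the other sign, -0.791 millionths (SE 0.674), or -0.744 SD.

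Il1rap, the accessory chain that receptors of interleukin-1 and interleukin-33 need to signal, had 16.2, 11.1, 8.14, 18.03 and 35.6 millionths in DMHF rats, against -0.460, -13.3, 0.663, 14.2 and -1.11 in control rats. Of the DMHF rats, 3 lay above all controls, and control replicate 4 lay above DMHF replicates 2 and 3. The difference was 17.8 millionths (SE 6.16), or 1.74 SD (limma adjusted p = 0.868). Its other probe set differed by -0.157 millionths (SE 0.438), or -0.247 SD.

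Il1r1, the signalling receptor of interleukin-1, was nominally lower, with 3.89, -10.7, -12.2, -1.22 and -6.41 millionths in DMHF rats and 6.06, 0.879, -2.02, 0.134 and -5.06 in control rats. The groups overlapped, although 3 DMHF rats lay below all controls. The difference was -5.33 millionths (SE 3.35), or -0.961 SD (limma adjusted p = 0.955). The other probe sets of Il1r1 differed by -0.568 and 0.166 SD, so the probe sets of Il1r1, like those of its partner chain Il1rap, did not share a sign.

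Il17ra, the common receptor chain of the interleukin-17 family, had the lowest difference in SD of all members, -1.58. Its values were -0.364, -0.213, -0.625, -1.56 and -0.673 millionths in DMHF rats, against 0.484, -0.161, -0.325, -0.166 and 0.169 in control rats. In DMHF, 4 of 5 rats lay below all controls, and replicate 2 lay between controls 3 and 4. The difference was -0.688 millionths (SE 0.338) with a limma adjusted p of 0.931. That moderated SE exceeds what the SDs of 0.525 in DMHF and 0.325 in control give, and with no moderation of the variance Il17ra was the only 1 of the 89 members listed as lower at an unadjusted p under 0.05. That setting listed 289 of all 14217 genes as lower.

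Receptors of interleukin-6 did not separate the groups. Il6st, the gp130 chain shared by the interleukin-6 family, had the highest mean of all members, 9.61, and differed by 0.451 millionths (SE 1.42), or 0.193 SD. Its other probe sets differed by -0.371, 1.01 and 0.273 SD. Il6r, the chain specific for interleukin-6, differed by -1.32 millionths (SE 2.66), or -0.299 SD. Il22ra2, a soluble decoy for interleukin-22, was among the most variable members, with -5.27, 10.8, 6.21, -5.42 and 27.7 millionths in DMHF rats and 20.0, -15.7, -4.58, 10.8 and -10.6 in control rats, and its difference of 6.80 millionths (SE 8.63) was smaller than the spread of either group.

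**Figure D4:**
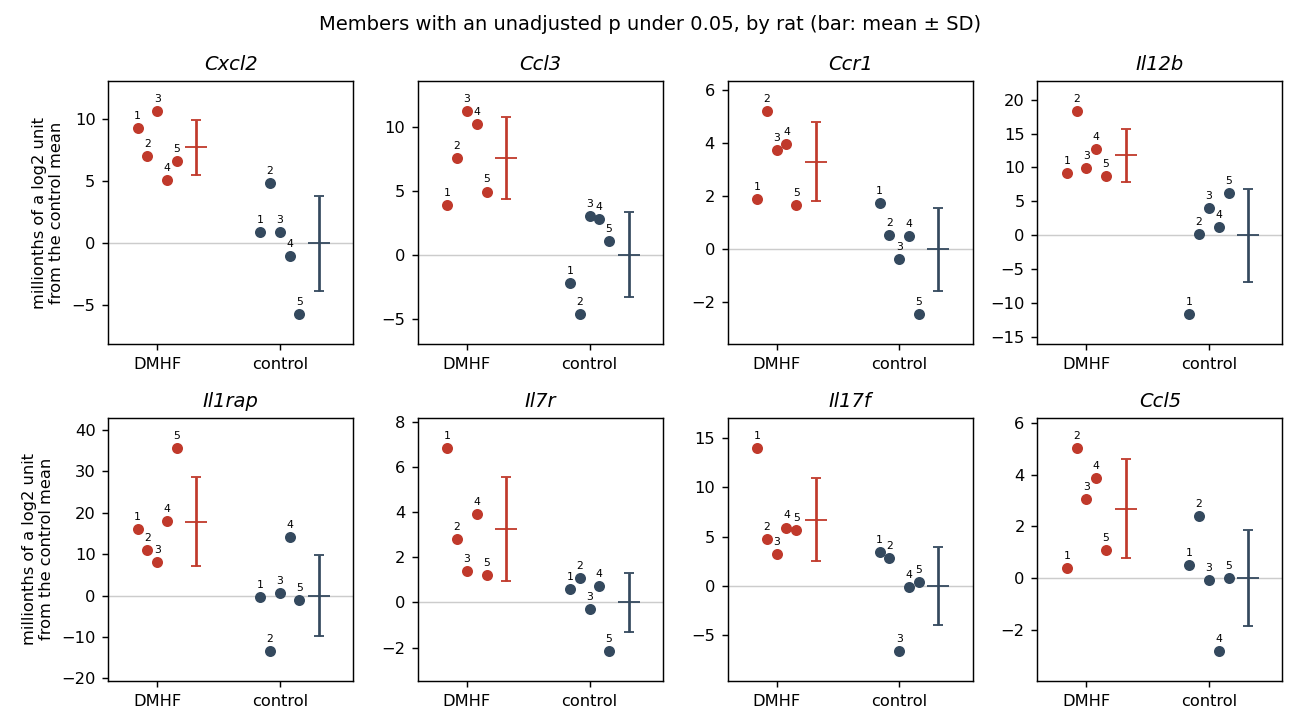
Values of the 8 members with an unadjusted p under 0.05, in millionths of a log2 unit from the control mean, with 1 numbered point per rat (replicate number) and bars for the mean and SD of each group (n = 5 each). Cxcl2, Ccl3, Il12b and Il7r show no overlap between DMHF and control rats, and in the other 4 genes at least 1 DMHF rat falls within the control range.

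Probe sets of the same gene often disagreed. Of 17 members with several probe sets, 9 had differences of 1 sign on all of them. Cxcl12 had negative and Cxcr4 positive differences on all 3 of their probe sets, each within 1 SD. For Il7r and Il1rap, both listed through the probe set with the higher mean, the other probe set stood on the opposite side of 0. Cxcl2, Ccl3, Ccr1, Il12b, Il17f and Ccl5 had 1 probe set each, so no such comparison was possible for them. Over all 114 probe sets of the members, 85 (74.6%) were nominally higher in DMHF.

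**Figure D5:**
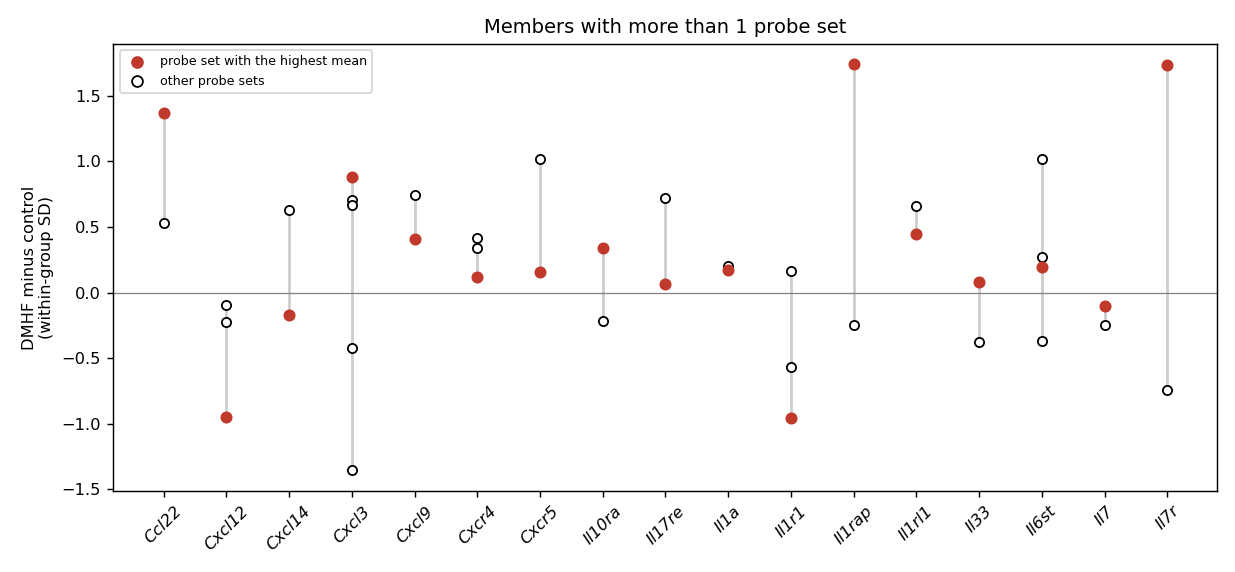
Difference between DMHF and control rats in within-group SD for each probe set of the 17 members that have more than 1, with the probe set of the highest mean in red and the others in white. For Il7r and Il1rap the red point lies at 1.74 SD and the white point below 0.

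Pathway genes outside these symbols were split evenly. Of 58 measured such genes, 29 were nominally higher and 29 lower in DMHF, with 0 called and 0 at an unadjusted p under 0.05 by limma. The median difference was -0.0100 SD. Of 25 signalling genes 12 were higher, with the smallest p for Stat2 (0.738 millionths, SE 0.345), Socs1 (2.84, SE 1.34) and Socs3 (1.89, SE 0.902), a transducer of interferon signals and a pair of feedback inhibitors. Of 8 other chemokine genes 2 were higher, and Ackr3, a scavenger receptor of Cxcl12, differed by -2.75 millionths (SE 1.25), or -1.35 SD. Of 13 further cytokines 7 were higher, and of their 12 measured receptors 8 were higher. Whether these shares differ from that of the members was not tested. Of the 58, 33 had means below the array median, against 76 of the 89 members.

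Markers of blood and immune cells were read beside these results. For T, B and NK cells, 8 of 10 measured markers were nominally higher in DMHF and 0 of 10 had a mean above the array median. Their mean per rat ran from -0.565 to 1.19 SD in DMHF and from -0.536 to 0.664 SD in control. For mast cells 5 of 6 were higher and 0 of 6 had a mean above the array median. Rats ran from -0.0381 to 1.28 SD in DMHF and from -0.327 to 0.714 SD in control for these. Of all genes 53% were nominally higher, and 64.8% of those below the array median. For neutrophils and monocytes 3 of 6 markers were higher, with rats from -0.721 to 0.718 SD in DMHF and from -0.578 to 0.380 SD in control. Microglial markers, 7 of 9 of them above the array median, were higher for 5 of 9, with rats from -0.851 to 0.140 SD in DMHF and from -0.343 to 0.484 SD in control. All 6 choroid plexus markers were nominally higher, from -0.262 to 2.08 SD in DMHF rats and from -1.20 to 1.15 SD in control rats, while 5 of 6 endothelial and 5 of 7 meningeal markers were nominally lower. The ranges of the groups overlapped for every list given here, and the part of these cells in the values of the members was not tested.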

How the data were processed

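Total RNA of the right brain of 10 rats was labelled from 100 ng with a 3' in vitro transcription kit and hybridised to 1 Affymetrix array per rat, per the labels' protocols. The authors deposited 1 table of processed values, read here as log2 because of their range, as no log base is given. R 2.7.2 was used, per the submitters' processing notes. The sources used here do not give the background correction, normalization or summary of probes, nor the step that left differences between arrays so small (median SD over the arrays of 2.20 millionths).

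From these values, 57 control probe sets were left out and 31042 were tested. GEO's platform annotation named 1 gene for 20826 of them, several for 436 and none for 9780. All 89 members matched the RefSeq gene table (GRCr8), with 0 symbols changed. Groups and replicate numbers came from the titles. DMHF was compared with control by limma 3.58.1 in R 4.3.3 (lmFit, eBayes, two-sided, no covariate, Benjamini-Hochberg over all probe sets, threshold 0.05), and single genes also by an exact permutation test. The fit was tested on simulated data. The number of arrays limits the precision.

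The members and lists were chosen with earlier results of these data known. Named members were the 6 higher and 6 lower with the smallest p, the 6 with the highest mean, the 4 with the widest SD, those whose groups did not overlap, and 16 fixed by name. Il17f and Cxcl1 were added after their values were seen. Promoter sequences are from RefSeq, 250 bases before the start, for 67 members. Alternatives were quantile normalization, a common array median, array weights, other variance estimates, only the probe sets with a mean at or above the median probe set, other choices of probe set, the replicate number as a block, and each array left out.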

Additional observations from a re-analysis of the deposited data

Results flagged for a closer look

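For each of the 31 genes named above and each group of 5 rats, the highest and lowest rat were compared with the others, and a rat was listed where its gap to the nearest rat took up more than 0.71 of the range of the group. Chance lists about 1 in 20 groups. Of 62 groups, 2 held such a rat, both in the DMHF group. For Il17f, DMHF replicate 1 stood at 14.0 millionths from the control mean, against 3.28 to 5.92 in the other 4 DMHF rats. For Il36b, DMHF replicate 5 stood at -0.488 millionths, against -1.83 to -1.53 in the others.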

How the results depend on the processing

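No member passed the threshold under any alternative run. Over all probe sets 13 passed after quantile normalization and 1 without DMHF replicate 2 (range 0 to 1 with single arrays left out). At an unadjusted p under 0.05, the 8 members listed as higher (8.99%, against 2.98% of all genes) became 5 with a common array median (Cxcl2, Il12b, Il1rap, Il17f and Cxcl16, or 5.62%, against 0.703% of all genes). Quantile normalization left a difference in only 22 of the 89 members and in 3226 of all 14217 genes. There the 8 listed as higher became 0, against 5.11% of all genes that kept a difference. They were 0 among the 13 members left when only probe sets at or above the median probe set were tested, against 1.79% of all genes there, and 7 to 12 (7.87% to 13.5%) with single arrays left out, against 2.17% to 3.78% of all genes. The 0 listed as lower became 1 with array weights, against 350 of all 14217 genes. They became 1 with no moderation of the variance, against 289 of all genes, and 1 with the replicate block, against 366. With single arrays left out they were 0 to 1, against 228 to 410 of all genes. The 71 members nominally higher became 63 to 73 (70.8% to 82.0%) with single arrays left out. Of all genes 50.4% to 55.2% were higher there. Below the array median these shares were 73.7% to 88.2% of the members and 59.4% to 67.3% of all genes. With a common array median 77.5% of the members were higher, against 49.5% of all genes. Below the array median it was 81.6% of the members, against 63.3% of all genes. After quantile normalization 15 of 22 members (68.2%) were higher. Of all genes that kept a difference 60.9% were higher. Below the array median it was 68.4% of the members that kept one, against 66.1% of all such genes. Among these brighter probe sets 7 of 13 members (53.8%) were higher, against 46.6% of all genes. The 4 members without overlap were 1 with a common median, 0 after quantile normalization, 0 among the brighter probe sets and 4 to 7 with single arrays left out (7 without DMHF replicate 5 or control replicate 1). Over all genes the share without overlap was 0.893% with all arrays, 0.141% with a common median and 1.32% to 2.10% with single arrays left out, of which 2.10% without DMHF replicate 5 and 1.51% without control replicate 1. Of the 9250 genes among the brighter probe sets, 29 had all DMHF rats above all controls and 37 had all below. For quantile normalization the share over all genes was not computed. Leaving out an array cannot end a separation. Cxcl2, Ccl3, Il12b and Il7r therefore stayed without overlap in each of these 10 runs by construction, and 4 was the lowest count possible.

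Signs changed with single arrays left out for Ccl2 (-0.396 to 2.06 millionths), Cxcl10 (-0.0062 to 0.642), Cxcl14 (-1.34 to 0.306), Cxcr4 (-4.73 to 8.26), Il33 (-1.51 to 2.23), Il34 (-0.634 to 0.131), Il6r (-3.18 to 0.357) and Il6st (-0.689 to 1.23). Il6r stood at 70.3 after quantile normalization, and the cause was not tested. The titles do not state that equal replicate numbers pair the rats. Same-numbered rats correlated in their deviations from the group means at 0.0288 to 0.273. For 3 of 5 DMHF rats the correlation was best with their own number, and whether the numbers pair the rats was not tested. With the replicate block 10 members (11.2%, against 4.02% of all genes) were listed as higher and 1 as lower (against 366 of 14217 genes).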
